A study of Drosophila melanogaster with 12 samples.

Results

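The genes described here encode the inducible humoral defence of the fruit fly: antimicrobial peptides, Bomanins, and the pattern recognition proteins that sense microbes. They were chosen by name, as the probe sets with a single gene symbol in the platform annotation that begins with AttA to AttD, Cec, Dpt, Drs, Bom, PGRP- or GNBP, or that is Mtk, Def or Dro. Of the 18769 probe sets tested, 29 met this rule, and they stood for 29 different genes: 8 Bomanin genes, 7 genes of the Drosomycin family, 5 other antimicrobial peptide genes (AttD, CecB, Def, DptB and Mtk) and 9 recognition genes. No measured value entered the choice. Expression was measured in whole Drosophila melanogaster of the outbred population LHm, reared at 25 °C, in 6 groups of untreated animals: female and male larvae in the third instar, female and male pupae, and female and male adults. The labels name no infection, wounding, mutation or transgene, so every value is a basal level in unchallenged animals as far as the labels tell. Each group had 2 biological replicates of 10 pooled animals, 1 array for each. Adult age, mating status and the microbes carried by the animals were not stated in the labels.

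In insects, microbial cell wall fragments are recognised by peptidoglycan recognition proteins (PGRPs) and by proteins of the GNBP family, named for Gram-negative binding. Recognition feeds the Toll pathway, which responds mainly to fungi and Gram-positive bacteria, and the Imd pathway, which responds mainly to peptidoglycan of the Gram-negative type. Both end in NF-kappaB factors that switch on effector genes in the fat body, the insect counterpart of the liver. Imd also does so in barrier epithelia such as the gut. The Bomanins, short secreted peptides of the Toll response, and Drosomycin, an antifungal peptide, are classical Toll targets, whereas diptericins, cecropins and attacins depend mainly on Imd.

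Values are log2 expression levels as deposited, 1 per probe set and array, and differences are on the same log2 scale, so a difference of 1 is a doubling. A difference was called when its adjusted p from limma, with Benjamini-Hochberg adjustment over all 18769 probe sets, was under 0.05. The fit of 6 group means had 2 arrays a group, so the error of every difference rests on the pooled spread within 6 pairs and the number of arrays limits the precision. Levels of different probe sets cannot be set against each other, because each has its own probes. All values come from whole animals, in which fewer cells of a type and less RNA per cell cannot be told apart. The array medians were 6.27 to 6.44 in females and 6.73 to 6.81 in males, while array means lay between 6.939 and 6.997. Over all probe sets the median of females minus males came to 0.23 in larvae, 0.37 in pupae and 0.21 in adults. Recentring, which subtracts from each array its median offset from the across-array mean of every probe set, moved these medians to 0.04, 0.10 and -0.04, and centring each array on its own median moved them to 0.60, 0.74 and 0.68. The 18 bacterial spike control probe sets had medians of females minus males of 0.43 in larvae, 0.73 in pupae and 0.011 in adults. The part of this offset in any sex difference was not tested.

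Of the 29 probe sets, 27 passed a filter that keeps the brighter part of the array (a mean over the 12 arrays of at least 5.64, the upper limit of the lowest tertile of probe set means). Drsl3 and Drsl6 did not. The table used here holds no detection calls, so 5.64 serves only as a guide to dim signal, where differences are compressed. Male pupae had the most dim members: 12 of the 29 lay below the limit on both of their arrays (41.4%), against 37.2% of all probe sets there. In the other groups 4 to 6 members did (13.8% to 20.7%), against 35.8% to 39.5% of all probe sets there.

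Over all 29 genes, pupae differed from larvae mainly downward. In females 4 members were called higher and 11 lower, where 25.7% of all probe sets were called higher and 19.6% lower. In males 3 were called higher and 12 lower, where 27.2% and 21.2% of all probe sets were. The members called higher in both sexes were AttD, Def and CecB, joined in females by Drs. In adults against pupae, 12 members were called higher and 7 lower in females (27.2% higher and 27.2% lower over all probe sets), and 15 higher and 6 lower in males (18.8% and 32.2%). The 8 Bomanins and Drsl4 made up 9 of those called higher in each sex, and PGRP-SC2 and PGRP-LB were also higher in both. Adults against larvae gave 11 higher and 11 lower in females (28.2% and 24.3%) and 12 higher and 7 lower in males (24.3% and 32.2%). The stage comparisons within a sex share groups, since pupae serve as both the later and the earlier stage.

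Between the sexes, 14 of the 29 members were called lower in female adults and 5 higher, while in larvae and pupae the shares called higher in females were near or below those of all probe sets. In larvae 9 were called higher and 2 lower in females, where 27.1% of all probe sets were called higher and 11.9% lower. In pupae 11 were called higher and 1 lower, where 51.9% and 14.3% of all probe sets were. In adults 5 were called higher and 14 lower in females, where 39.0% and 26.6% of all probe sets were. The 5 higher were Def, Drs, PGRP-LE, Drsl6 and CecB, and the 14 lower were 7 Bomanins, Drsl4 and 6 recognition genes. Scaling moved these splits. After recentring, the counts of higher and lower were 5 and 2 in larvae, 6 and 2 in pupae and 4 and 16 in adults. After array-median centring they were 20 and 1 in larvae, 22 and 0 in pupae and 7 and 8 in adults. The median log2 difference over the 29 members in adults was -0.51, beside 0.21 over all probe sets.

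**Figure D1:**
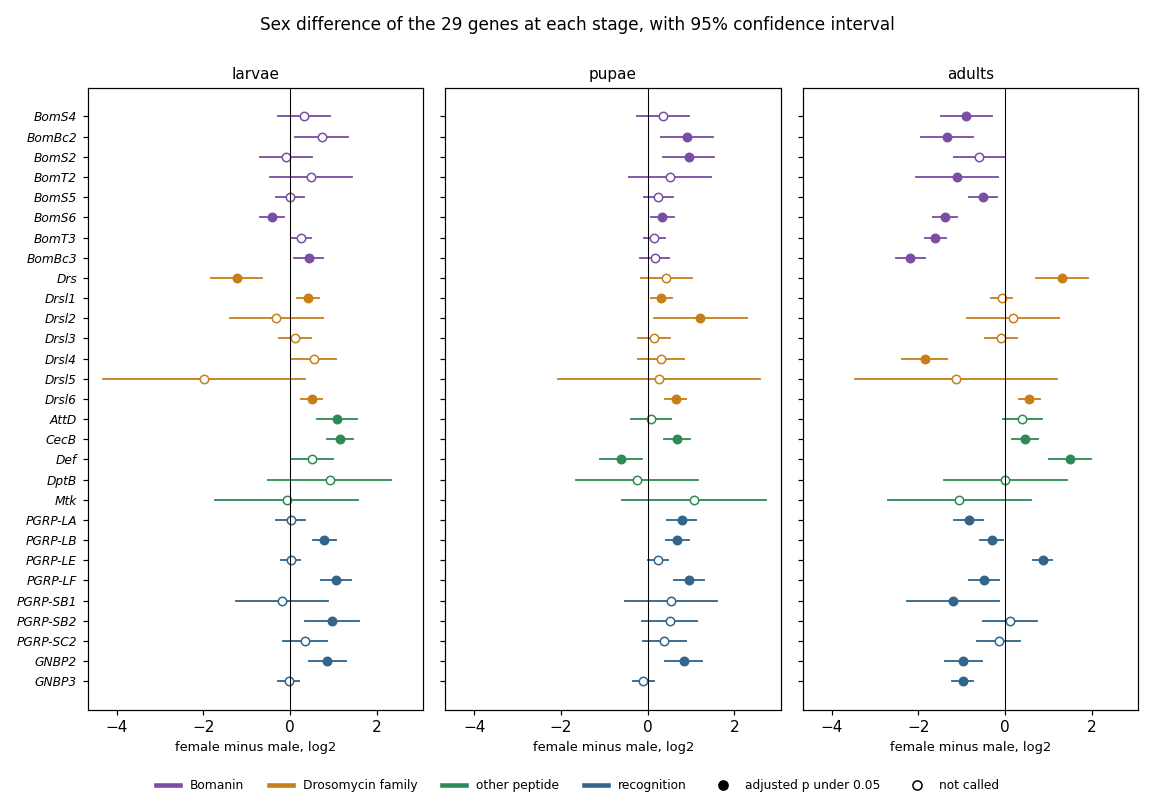
Log2 difference of females minus males (horizontal axis) for the 29 genes in larvae, pupae and adults, with 95% confidence intervals from limma. Filled points passed an adjusted p of 0.05 and open points did not. In adults all 8 Bomanins lie left of zero and Def, Drs and PGRP-LE right of it.

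The sex difference itself changed between stages for several members. From larvae to pupae the change was called higher for 3 members (BomS6, Drs and PGRP-LA) and lower for 2 (AttD and Def), where 7.74% and 9.78% of all probe sets were called higher and lower. Each of these 5 calls was lost in at least 1 alternative setting or when 1 array was left out. From pupae to adults it was called higher for 2 (Def and PGRP-LE) and lower for 14, where 26.1% and 25.5% of all probe sets were. The call of PGRP-LE was lost under quantile normalization. The 14 were the 8 Bomanins, Drsl4, GNBP2, GNBP3, PGRP-LA, PGRP-LB and PGRP-LF. The largest log2 changes from pupae to adults were -2.35 ± 0.21 for BomBc3 (adjusted p = 4.3e-06), -2.25 ± 0.38 for BomBc2 (adjusted p = 0.000476) and -2.16 ± 0.33 for Drsl4 (adjusted p = 0.000229).

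The Bomanin genes were far higher in adults than before. Apart from BomS6 in larvae, their juvenile log2 levels ran from below the dim limit up to 6.96, that of BomT2 in female larvae replicate 1. All 8 rose in adults against pupae in females and in males, where 27.2% and 18.8% of all probe sets did, and all 8 rose in adults against larvae, where 28.2% of all probe sets did in females and 24.3% in males. Each of the 8 had its highest group mean in male adults, where 14% of all probe sets had theirs, and its lowest in male pupae, where 24.5% of all probe sets had theirs. A group of 6 lies close together on chromosome arm 2R, in the order BomS4, BomBc2, BomS2, BomT2, BomS5 and BomS6, with 1 other gene between BomS2 and BomT2 in RefSeq. BomT3 and BomBc3 are neighbours on 3R. BomS4 and BomBc2 overlap in RefSeq, and their probe sets were not checked for shared sequence.

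BomS6, a short-form Bomanin, was the member with the widest range of measured levels. Its log2 levels were 7.63 and 7.63 in female larvae, 8.09 and 8.0 in male larvae, 4.48 and 4.50 in female pupae, 4.31 and 3.98 in male pupae, 11.38 and 11.62 in female adults and 12.87 and 12.91 in male adults. The pupal arrays were the lowest, the larval arrays lay between, and no array of one stage overlapped another stage. The log2 difference of adults minus pupae was 7.01 ± 0.12 in females (SE, adjusted p = 2.54e-11, limma), and 8.74 ± 0.12 in males (adjusted p = 5.64e-12). All 4 pupal arrays lay below the dim limit, where differences are compressed, so these are differences of measured signal and no exact fold is read from them. BomS6 also fell in pupae against larvae, by 3.14 ± 0.12 on the log2 scale in females (adjusted p = 6.63e-09) and by 3.90 ± 0.12 in males (adjusted p = 1.29e-09).

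BomT3, a tailed Bomanin, passed no test between pupae and larvae and was higher in adults. Its log2 levels were 4.35 and 4.57 in female larvae, 4.14 and 4.27 in male larvae, 4.27 and 4.40 in female pupae, 4.18 and 4.17 in male pupae, 9.30 and 9.36 in female adults and 10.88 and 11.01 in male adults. All 8 juvenile arrays lay below the dim limit, so its adult differences too start from a level at which they are compressed. The log2 difference of adults minus pupae was 5.0 in females and 6.77 ± 0.11 in males (adjusted p = 7.5e-12).

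BomBc2, one of the bicipital Bomanins, which carry a pair of Bomanin motifs, had log2 levels of 6.77 and 5.93 in female larvae, 5.54 and 5.70 in male larvae, 5.79 and 6.48 in female pupae, 5.28 and 5.16 in male pupae, 11.60 and 11.94 in female adults and 13.14 and 13.08 in male adults. Larval and pupal arrays of females overlapped, and every adult array lay above every juvenile one. Adults minus pupae gave a log2 difference of 5.63 ± 0.27 in females (adjusted p = 1.86e-08) and 7.89 ± 0.27 in males (adjusted p = 1.62e-09).

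BomBc3 was the Bomanin with the largest sex difference in adults. Its log2 levels were 6.29 and 6.28 in female larvae, 5.83 and 5.88 in male larvae, 5.79 and 6.18 in female pupae, 5.65 and 6.0 in male pupae, 9.44 and 9.26 in female adults and 11.55 and 11.52 in male adults. Both female adult arrays lay between the juvenile arrays and the male adult arrays. Adults minus pupae gave 3.36 in females and 5.71 in males on the log2 scale.

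The other 4 Bomanins followed the same adult rise. BomS2 had log2 levels of 11.19 and 11.23 in female adults and 11.96 and 11.65 in male adults, against 4.28 to 6.13 over its 8 juvenile arrays. BomT2 had 9.96 and 10.06 in female adults and 11.09 and 11.14 in male adults, against juvenile log2 levels of 4.02 to 6.96. BomS4 had adult log2 levels of 9.61 and 10.19 in females and 11.09 and 10.49 in males, and BomS5 had 9.12 and 9.29 in females and 9.70 and 9.72 in males. Their juvenile levels were 4.93 to 5.72 for BomS4 and 4.32 to 5.46 for BomS5. Over the 8 Bomanins the median log2 difference of adults minus pupae was 5.13 in females and 6.82 in males, beside medians over all probe sets of -0.04 and -0.07. In male pupae 7 of the 8 were below the dim limit on both arrays, and in female pupae 4 were, so these medians are of compressed differences. In pupae against larvae, 3 of the 8 were called lower in females (BomS5, BomS6 and BomT2) and 4 in males (those and BomS2). Over all probe sets 19.6% were called lower there in females and 21.2% in males. The female BomT2 log2 difference was -1.42 (adjusted p = 0.0193). It was -0.62, which did not pass, without female larvae replicate 1 and -2.21 without replicate 2. For adults against pupae and adults against larvae, all 8 stayed called in the same direction in both sexes when any single array was left out.

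**Figure D2:**
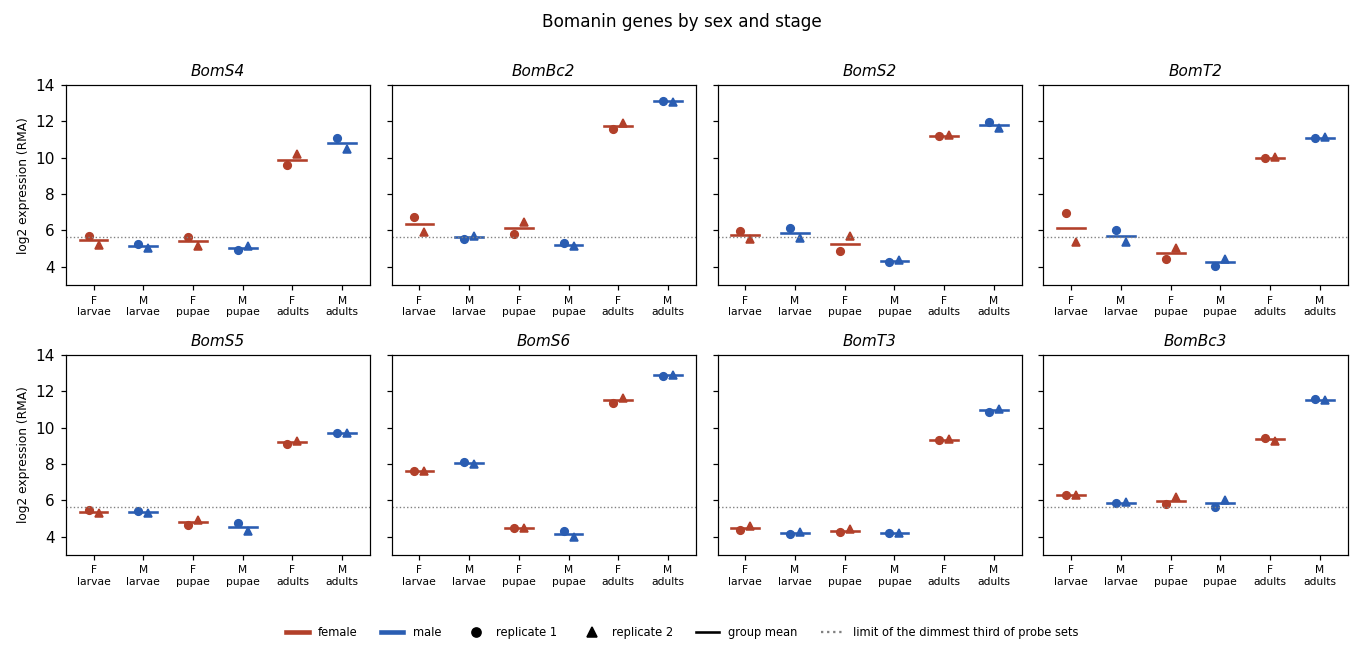
Log2 expression level (RMA, vertical axis) of the 8 Bomanin genes in the 6 groups (F, female, and M, male). Circles are replicate 1, triangles replicate 2, bars the group mean, and the dotted line is the 5.64 dim limit. In each panel all 4 adult arrays sit above all 8 juvenile arrays, and in male pupae 7 of the 8 genes lie below the dotted line on both arrays.

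Between the sexes, adult Bomanin levels were lower in females. Of the 8 genes, 7 were called lower in female adults, where 26.6% of all probe sets were, and none higher. The log2 difference of females minus males was -2.19 ± 0.15 for BomBc3 (adjusted p = 1.83e-07, limma), -1.61 ± 0.11 for BomT3 (adjusted p = 1.53e-07), -1.39 ± 0.12 for BomS6 (adjusted p = 1.62e-06) and -1.34 ± 0.27 for BomBc2 (adjusted p = 0.00115). For BomS2 it was -0.59 ± 0.27 (adjusted p = 0.074), which did not pass. In larvae and pupae the same genes had log2 differences of females minus males between -0.41 and 0.94, with 1 called higher and 1 lower in larvae, where 27.1% and 11.9% of all probe sets were, and 3 called higher in pupae, where 51.9% of all probe sets were. After recentring these Bomanin counts were 0 higher and 1 lower in larvae and 0 higher in pupae, and after array-median centring 5 higher and 0 lower in larvae and 7 higher in pupae. The fitted change of the sex difference from pupae to adults was called for all 8, with log2 values between -2.35 for BomBc3 and -0.76 for BomS5. These sex differences depended on the scaling. After recentring all 8 were called lower in female adults, and after array-median centring 4 were (BomBc2, BomBc3, BomS6 and BomT3), with all 8 signs kept. Leaving out female adults replicate 1 also reduced the calls to 4, and leaving out any other array left 5 to 8.

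Markers of several tissues also differed between adult females and males, where 39.0% of all probe sets were called higher and 26.6% lower in females. The 7 measured fat body markers (of 10 entries, the larval serum protein Lsp2 among them) had a summed linear level of 21829 to 26013 in female adults and 41375 to 42837 in male adults. Of the 7, 3 were called higher and 4 lower in females. Among the 3, Fbp1 and Fbp2 had log2 means of 6.06 and 5.95 in female adults, near the dim limit. In male adults these were 5.12 and 5.43, below it. The 10 hemocyte (blood cell) markers summed to 3562 to 4185 in female adults and 5037 to 5384 in male adults, with 1 called higher and 7 lower, which was 1 and 1 after array-median centring. The 10 measured midgut markers summed to 69772 to 79563 in female adults and 88644 to 91999 in male adults, with none called higher and 5 lower, which was 3 and 2 after array-median centring. The 8 ovary markers summed to 122373 to 131892 in female adults and 420 to 465 in male adults, and all 8 were called higher in females. They include the yolk protein genes Yp1, Yp2 and Yp3, with log2 means of 14.14, 14.83 and 14.82 in female adults. The sum therefore need not come from the ovary alone. Yp3 was also called higher in female than in male larvae, by 4.73 on the log2 scale. The 8 testis markers summed to 163 to 177 in female adults and 45845 to 47939 in male adults, and all 8 were called lower in females. In female adults all 8 testis markers, and in male adults 5 of the 8 ovary markers, were below the dim limit on both arrays. The part of these tissues in the Bomanin difference was not tested. In adults against pupae, 1 of the 7 fat body markers was called higher and 6 lower in each sex. The higher one was FASN1, by a log2 difference of 2.71 in females and 4.11 in males. The largest falls were those of Fbp1 and Fbp2, by 8.72 and 8.89 in females and by 9.74 and 9.25 in males. These counts therefore need not follow the amount of fat body. Of the 10 midgut markers 9 were called higher and 1 lower in each sex. Over all probe sets 27.2% were called higher and 27.2% lower there in females, and 18.8% and 32.2% in males. The part of either tissue in the adult rise of the Bomanins was not tested.

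The Drosomycin family genes differed in their stage patterns. The family holds Drs, the antifungal peptide Drosomycin itself, and 6 related genes, all on 3L, where Drsl2, Drsl3, Drsl4 and Drsl5 are neighbours, Drsl1 and Drsl6 are neighbours, and Drs lies near them. In adults against pupae, 1 of the 7 was called higher and 3 lower in females, where 27.2% and 27.2% of all probe sets were, and 2 higher and 1 lower in males, where 18.8% and 32.2% were. The female count of lower calls was 0 without female pupae replicate 1 or without female adults replicate 1, 1 without female pupae replicate 2, and 2 to 4 without any other array. Drsl4 rose in adults, Drs, Drsl2 and Drsl5 were high in some juvenile groups, and Drsl3 stayed between 4.0 and 4.65 on the log2 scale on all 12 arrays.

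Drs was expressed at a high log2 level in every group: 11.02 and 11.96 in female larvae, 12.62 and 12.83 in male larvae, 13.23 and 13.06 in female pupae, 12.56 and 12.85 in male pupae, 12.07 and 12.54 in female adults and 11.09 and 10.90 in male adults. In larvae both female arrays lay below both male arrays, and in adults both lay above. Females minus males gave a log2 difference of -1.23 ± 0.27 in larvae (SE, adjusted p = 0.00557, limma), 0.44 ± 0.27 in pupae (adjusted p = 0.165) and 1.31 ± 0.27 in adults (adjusted p = 0.00121). Without female larvae replicate 1 the larval log2 difference was -0.76 (adjusted p = 0.0263). The change of the sex difference from larvae to pupae was 1.67 ± 0.38 (adjusted p = 0.0115). In order of group means, female pupae, male larvae and male pupae came first and male adults last. Neither male pupae against male larvae (log2 difference -0.02) nor the pupal sexes passed the test.

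Drsl4, like the Bomanins, was highest in male adults. Its log2 levels were 8.42 and 8.36 in female larvae, 7.94 and 7.75 in male larvae, 8.22 and 8.01 in female pupae, 7.73 and 7.88 in male pupae, 10.87 and 9.94 in female adults and 12.19 and 12.32 in male adults. Every adult array lay above every juvenile one, and the adult sexes did not overlap. Adults minus pupae gave a log2 difference of 2.29 ± 0.23 in females (adjusted p = 8.3e-06) and 4.45 ± 0.23 in males (adjusted p = 4.6e-08), and that of females minus males in adults was -1.85 ± 0.23 (adjusted p = 3.27e-05).

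Drsl2 was the larval member. Its log2 levels were 7.67 and 9.69 in female larvae and 9.03 and 8.96 in male larvae, 6.50 and 6.12 in female pupae and 4.98 and 5.19 in male pupae, and 5.04 to 5.52 over the 4 adult arrays. It fell in pupae against larvae by 2.37 ± 0.48 on the log2 scale in females (adjusted p = 0.00202) and by 3.90 ± 0.48 in males (adjusted p = 4.72e-05). Drsl1 and Drsl6 varied little, within 5.86 to 6.85 and 4.72 to 5.71 on the log2 scale.

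For Drsl5 the 2 female larval arrays disagreed. Its log2 levels were 8.02 and 12.69 in female larvae, 12.40 and 12.29 in male larvae, 12.66 and 12.93 in female pupae, 12.52 and 12.54 in male pupae, 10.02 and 9.89 in female adults and 11.08 and 11.10 in male adults. Apart from female larvae replicate 1, the juvenile arrays were high and close together, and the adult arrays lower. That pair set the SE of every Drsl5 difference to 1.05. Of its pairwise log2 differences only that of female adults minus female pupae passed the test, at -2.85 (adjusted p = 0.0402). The call was lost with the trend and robust settings of limma (adjusted p = 0.124). It was also lost without any single array outside the female larvae. Without female larvae replicate 1 the adult minus pupal log2 differences were -2.85 in females and -1.44 in males. Differences from female larvae turned on the array left out. Without replicate 1 the sex difference in larvae was 0.35, and without replicate 2 it was -4.32. Female pupae minus female larvae gave 0.11 without replicate 1 and 4.78 without replicate 2. Female adults minus female larvae gave -2.74 and 1.93 in the same order.

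**Figure D3:**
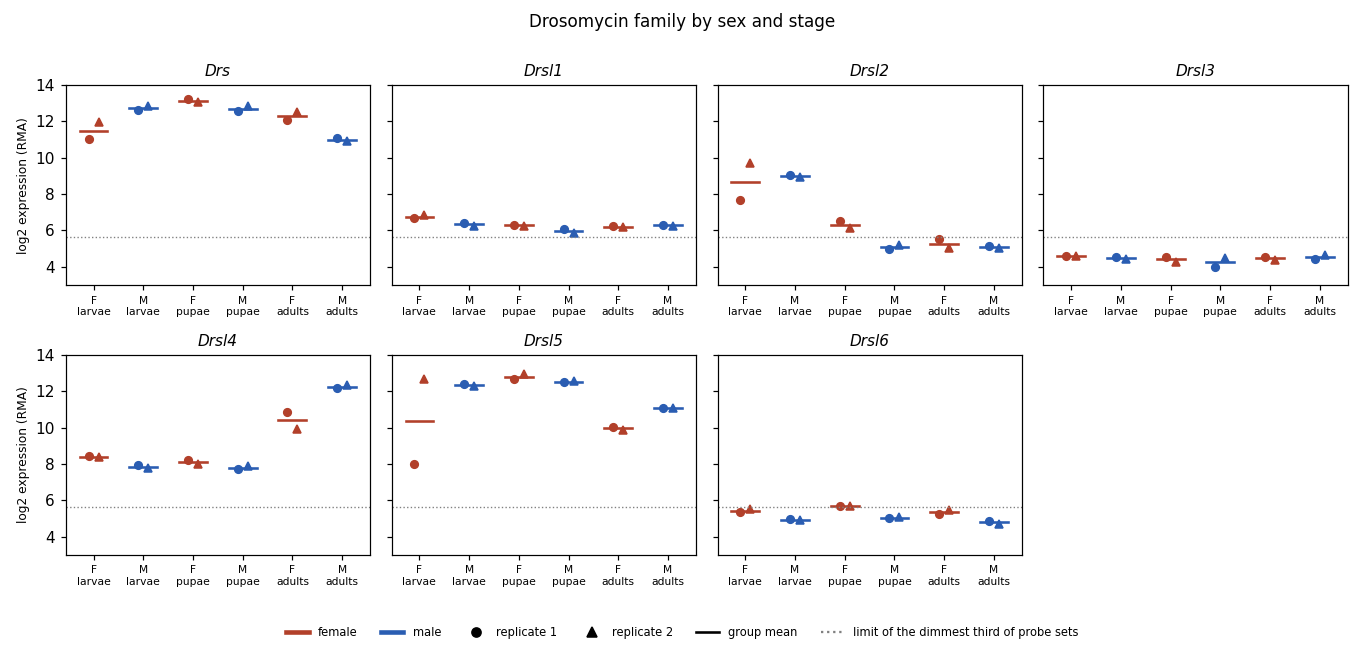
Log2 expression level (RMA, vertical axis) of the 7 Drosomycin family genes in the 6 groups (F, female, and M, male), with circles for replicate 1, triangles for replicate 2, bars for the group mean and the dotted line at the 5.64 dim limit. Drsl4 is highest in male adults, Drsl2 is high in larvae, and female larvae replicate 1 lies 4.67 log2 units below replicate 2 for Drsl5.

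The 2 female larval arrays stood apart from each other for several of these genes, and 2 arrays alone cannot show which is the odd one. They differed by over 1 log2 unit for 5 of the 29 members (17.2%), against 131 of all 18769 probe sets (0.698%). The level in replicate 1 was lower than in replicate 2 by 4.67 log2 units for Drsl5, 2.03 for Drsl2, 1.95 for PGRP-SB1 and 1.19 for PGRP-SB2, and higher by 1.60 for BomT2. Female pupae and male adults each had 2 such members (6.90%), against 0.506% and 0.0852% of all probe sets, and in both groups these were Mtk and DptB, higher in replicate 1. Male larvae, male pupae and female adults had none. Each replicate pooled 10 animals, and no source says what else differed between them.

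The other antimicrobial peptides peaked in pupae or varied between replicates. AttD, an attacin that lacks the signal sequence of the secreted attacins, and Def, a defensin active mainly on Gram-positive bacteria, were higher in pupae than in larvae in both sexes. CecB, a cecropin, was higher in pupae than in larvae in both sexes, and higher in females in larvae and pupae. DptB, a diptericin, and Mtk, the antifungal peptide Metchnikowin, passed no test in any of the 11 comparisons.

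AttD had log2 levels of 5.33 and 4.97 in female larvae, 4.25 and 3.90 in male larvae, 7.75 and 8.06 in female pupae, 8.02 and 7.64 in male pupae, 4.78 and 4.60 in female adults and 4.52 and 4.07 in male adults. The 4 pupal arrays were the only ones above the dim limit. The log2 difference of pupae minus larvae was 2.75 ± 0.21 in females (SE, adjusted p = 1.03e-06, limma) and 3.76 ± 0.21 in males (adjusted p = 9.67e-08). In adults against pupae AttD fell by 3.21 ± 0.21 in females (adjusted p = 1.91e-07) and fell by 3.54 ± 0.21 in males (adjusted p = 1.03e-07), both on the log2 scale.

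Def had log2 levels of 6.43 and 6.15 in female larvae, 5.91 and 5.66 in male larvae, 9.22 and 9.14 in female pupae, 9.50 and 10.10 in male pupae, 8.76 and 8.84 in female adults and 7.02 and 7.58 in male adults. The pupal rise was 2.89 ± 0.22 in females (adjusted p = 1.07e-06) and 4.01 ± 0.22 in males (adjusted p = 8.69e-08). In males the level was then lower in adults than in pupae, by a log2 difference of -2.50 ± 0.22 (adjusted p = 2.62e-06), while in females that difference was -0.38 (adjusted p = 0.173). The sex difference, females minus males, was -0.62 ± 0.22 in pupae (adjusted p = 0.029) and 1.50 ± 0.22 in adults (adjusted p = 9.54e-05). Its change from pupae to adults was 2.12 ± 0.31 (adjusted p = 0.000151). The pupal call of Def was lost after array-median centring, at -0.24 (adjusted p = 0.296), and without male pupae replicate 2, at -0.32 (adjusted p = 0.239). It was also lost under quantile normalization (adjusted p = 0.0515), in a fit of only the groups compared (adjusted p = 0.0502) and without female pupae replicate 1 (adjusted p = 0.066) or replicate 2 (adjusted p = 0.0963).

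CecB had log2 levels of 7.35 and 7.36 in female larvae, 6.15 and 6.26 in male larvae, 7.75 and 8.16 in female pupae, 7.23 and 7.34 in male pupae, 6.61 and 6.49 in female adults and 6.17 and 6.01 in male adults. The arrays of the sexes did not overlap at any stage. Females minus males gave a log2 difference of 1.15 ± 0.14 in larvae (adjusted p = 8.17e-05), 0.67 ± 0.14 in pupae (adjusted p = 0.00184) and 0.46 ± 0.14 in adults (adjusted p = 0.0116). The adult call of CecB was lost after recentring, at 0.21 (adjusted p = 0.246), without female adults replicate 1 (adjusted p = 0.0717) and without male adults replicate 2 (adjusted p = 0.0794).

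Mtk had log2 levels of 8.13 and 8.86 in female larvae, 8.62 and 8.52 in male larvae, 10.05 and 8.19 in female pupae, 7.83 and 8.27 in male pupae, 7.39 and 7.72 in female adults and 9.90 and 7.32 in male adults. DptB had 7.52 and 8.51 in female larvae, 7.10 and 7.11 in male larvae, 7.79 and 6.19 in female pupae, 7.39 and 7.07 in male pupae, 7.49 and 7.91 in female adults and 8.71 and 6.67 in male adults. In female pupae and in male adults, replicate 1 was the higher array for both genes. Their SEs, 0.74 for Mtk and 0.63 for DptB, were the largest among the members after Drsl5. Calls appeared for both when 1 array was left out: for Mtk without male adults replicate 2, the log2 difference of females minus males in adults was -2.35 (adjusted p = 0.00864), and without male adults replicate 1 it was 0.24 (adjusted p = 0.766). For DptB without male adults replicate 2, that of male adults minus male larvae was 1.61 (adjusted p = 0.0432).

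**Figure D4:**
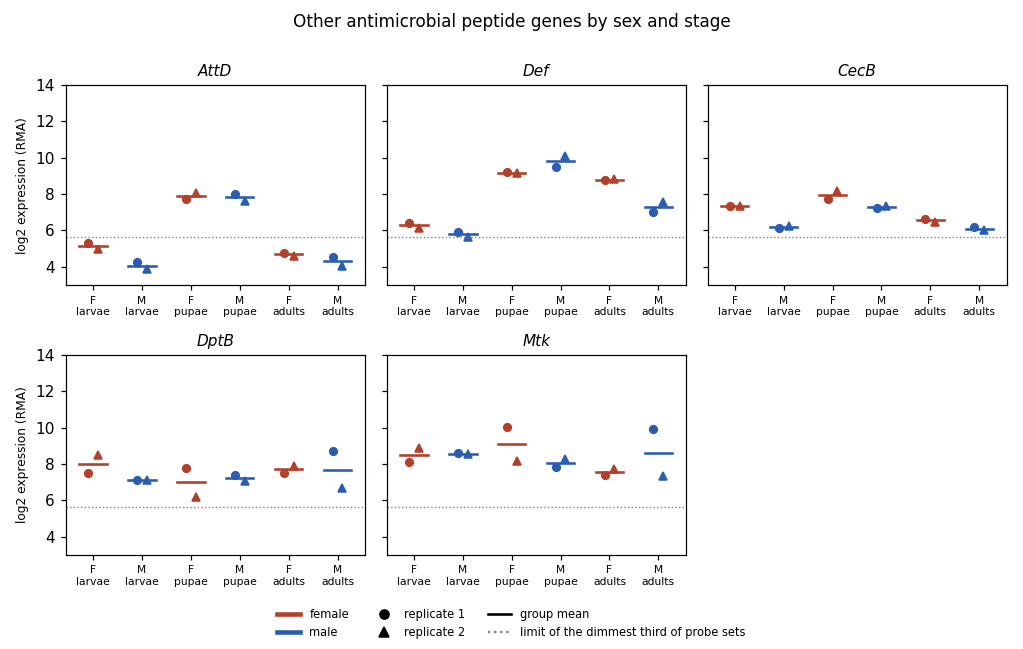
Log2 expression level (RMA, vertical axis) of the 5 other antimicrobial peptide genes in the 6 groups (F, female, and M, male), with circles for replicate 1, triangles for replicate 2, bars for the group mean and the dotted line at the 5.64 dim limit. AttD and Def are raised in pupae, and Mtk and DptB have widely spaced replicates in female pupae and male adults.

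The recognition genes were mostly lower in pupae than in larvae. Of the 9, 6 were called lower and none higher in female pupae against female larvae, where 19.6% of all probe sets were called lower, and likewise 6 and none in male pupae against male larvae, where 21.2% were called lower. With 1 array left out, the female count of lower calls was 3 to 6 (3 without female pupae replicate 2), the male count was 4 to 7 (4 without male larvae replicate 1), and without female larvae replicate 2 the female count had 1 higher. The group with the highest mean was female larvae for 5 of the 9, where 21.7% of all probe sets had theirs, and male larvae for 2, where 3.46% did. The lowest was male pupae for 6 of the 9, where 24.5% of all probe sets had theirs. The largest differences belonged to PGRP-SC2 and PGRP-LB, amidases that cut peptidoglycan and so dampen the Imd response.

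PGRP-SC2, an amidase known from the gut, had log2 levels of 12.59 and 12.83 in female larvae, 12.80 and 11.94 in male larvae, 8.53 and 8.66 in female pupae, 8.26 and 8.15 in male pupae, 10.39 and 10.57 in female adults and 10.54 and 10.72 in male adults. No array overlapped between stages, and within a stage the sexes did not pass the test. It fell in pupae against larvae by 4.12 ± 0.22 on the log2 scale in females (SE, adjusted p = 8.41e-08, limma) and by 4.16 ± 0.22 in males (adjusted p = 8.29e-08), and it was higher in adults than in pupae by 1.89 ± 0.22 in females (adjusted p = 2.71e-05) and by 2.42 ± 0.22 in males (adjusted p = 4.29e-06).

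PGRP-LB had log2 levels of 9.46 and 9.45 in female larvae, 8.59 and 8.74 in male larvae, 6.23 and 5.95 in female pupae, 5.47 and 5.34 in male pupae, 7.49 and 7.67 in female adults and 7.85 and 7.92 in male adults. Its probe set is of a type that can match several transcripts, so its levels are uncertain in that respect. It fell in pupae against larvae by 3.36 ± 0.12 on the log2 scale in females (adjusted p = 3.05e-09) and fell by 3.26 ± 0.12 in males (adjusted p = 4.01e-09). In log2 difference, females minus males was 0.79 in larvae and 0.68 in pupae, both called. In adults it was -0.30 (adjusted p = 0.0444), a call that array-median centring ended, with the sign turned to 0.17.

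Digestive enzymes of the midgut moved with this pupal fall. Of 12 midgut markers 10 were measured. Their summed linear level was 3422 to 3607 in female pupae and 87701 to 91009 in female larvae, and 3403 to 3700 in male pupae and 69110 to 74420 in male larvae. In adults it was 69772 to 79563 in females and 88644 to 91999 in males. Of the 10, 9 were called lower in pupae against larvae in females and 8 in males, with 1 higher in each sex. Over all probe sets 25.7% were called higher and 19.6% lower there in females, and 27.2% and 21.2% in males. In female pupae 3 midgut markers, and in male pupae 4, were below the dim limit on both arrays. The sum of the hemocyte markers was lower in pupae too, but the markers were split. PPO1 and PPO2, the brightest of them in larvae, fell most, by 5.96 and 5.24 on the log2 scale in females. Col4a1 and vkg were higher in female pupae, by 0.90 each. They summed to 8593 to 9497 in female pupae and 26097 to 29818 in female larvae, and to 5517 to 5939 in male pupae and 20760 to 21264 in male larvae, with 2 of the 10 called higher and 6 lower in females and 2 higher and 5 lower in males. The part of either tissue in the PGRP-SC2 and PGRP-LB differences was not tested.

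GNBP3, which senses fungal cell wall glucans upstream of Toll, and PGRP-LA, described as a modulator of the Imd response in barrier tissues, were lower in adults. GNBP3 had log2 levels of 11.17 and 11.40 in female larvae, 11.40 and 11.23 in male larvae, 11.02 and 10.95 in female pupae, 11.06 and 11.10 in male pupae, 8.13 and 8.22 in female adults and 9.13 and 9.18 in male adults. It fell in adults against pupae by 2.81 ± 0.11 on the log2 scale in females (adjusted p = 3.59e-09) and by 1.92 ± 0.11 in males (adjusted p = 7.94e-08). PGRP-LA had 9.40 and 9.90 in female larvae, 9.75 and 9.51 in male larvae, 9.83 and 9.83 in female pupae, 9.07 and 9.01 in male pupae, 7.27 and 7.35 in female adults and 8.15 and 8.15 in male adults. The adult arrays of both genes lay below all their juvenile arrays, and the female adult arrays were the lowest. PGRP-LA fell in adults against pupae by 2.52 ± 0.15 on the log2 scale in females (adjusted p = 9.9e-08) and by 0.89 ± 0.15 in males (adjusted p = 0.000425).

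PGRP-LE, an intracellular Imd receptor and the only member on the X chromosome, had log2 levels of 9.79 and 9.77 in female larvae, 9.75 and 9.79 in male larvae, 9.13 and 9.07 in female pupae, 8.91 and 8.82 in male pupae, 9.80 and 9.57 in female adults and 8.86 and 8.78 in male adults. It was the 1 recognition gene called higher in female adults than in male adults, with a log2 difference of 0.87 ± 0.10 (adjusted p = 1.67e-05). In larvae the same difference was 0.01 and the arrays overlapped.

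PGRP-LF, a membrane protein that restrains Imd signalling, had log2 levels of 7.92 and 8.11 in female larvae, 7.20 and 6.71 in male larvae, 7.81 and 7.62 in female pupae, 6.66 and 6.87 in male pupae, 7.44 and 7.46 in female adults and 7.97 and 7.89 in male adults. GNBP2 had 8.34 and 8.21 in female larvae, 7.57 and 7.27 in male larvae, 7.62 and 7.59 in female pupae, 7.06 and 6.48 in male pupae, 7.81 and 7.72 in female adults and 8.93 and 8.52 in male adults. Both were higher in females than in males before adulthood and lower in female adults. For PGRP-LF the log2 difference of females minus males was 1.06 ± 0.16 in larvae (adjusted p = 0.000496) and 0.95 ± 0.16 in pupae (adjusted p = 0.000551), and the adult value was -0.48, which array-median centring brought to -0.01 and no call. For GNBP2 it was 0.86 ± 0.19 in larvae (adjusted p = 0.00671), 0.83 ± 0.19 in pupae (adjusted p = 0.00401) and -0.96 in adults. PGRP-LF overlaps another gene, UGP, in RefSeq.

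PGRP-SB1, a secreted amidase, had log2 levels of 9.49 and 11.44 in female larvae, 10.77 and 10.53 in male larvae, 9.22 and 8.63 in female pupae, 8.35 and 8.40 in male pupae, 8.37 and 8.69 in female adults and 9.92 and 9.53 in male adults. Its neighbour PGRP-SB2 had 6.14 and 7.33 in female larvae and 5.46 to 6.07 on the other 10 arrays. In larvae the sex difference of PGRP-SB1 turned with the female array used: its log2 value was 0.79 without female larvae replicate 1 (adjusted p = 0.0447) and -1.16 without replicate 2 (adjusted p = 0.00816). In pupae against larvae PGRP-SB1 fell by 1.54 in females (adjusted p = 0.0226) and fell by 2.27 in males (adjusted p = 0.00218) on the log2 scale. The female value was -2.51 without female larvae replicate 1 and -0.56, which did not pass, without replicate 2.

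**Figure D5:**
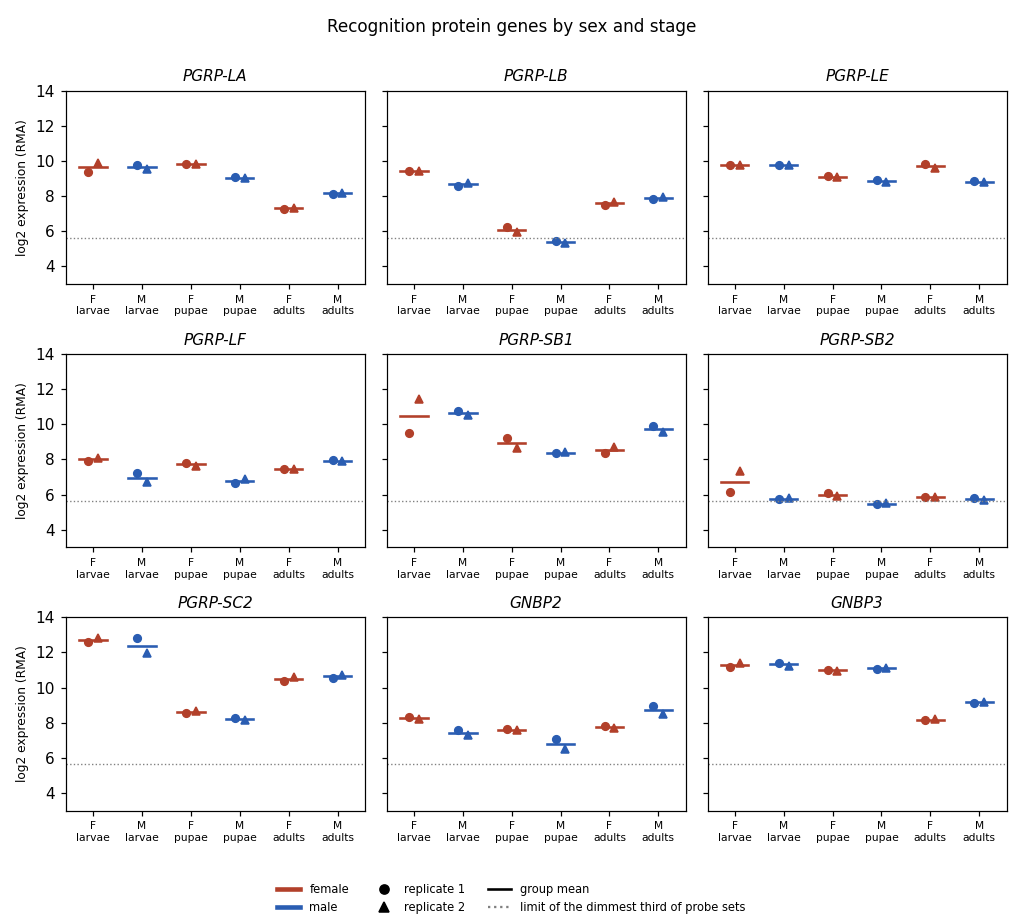
Log2 expression level (RMA, vertical axis) of the 9 recognition genes in the 6 groups (F, female, and M, male), with circles for replicate 1, triangles for replicate 2, bars for the group mean and the dotted line at the 5.64 dim limit. PGRP-SC2 and PGRP-LB dip in pupae, and GNBP3 and PGRP-LA are lowest in female adults.

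The genes of the signalling pathways were taken from lists of their own. Where a gene had several probe sets, the one with the highest mean was used. Of 19 Toll pathway genes 17 were measured. In adults 10 were called higher and 7 lower in females, where 39.0% and 26.6% of all probe sets were, and their median log2 difference was 0.84 against 0.21 over all probe sets. The largest log2 differences of females minus males were 3.38 ± 0.13 for Tl, the Toll receptor (adjusted p = 2.11e-09), 2.29 ± 0.11 for pll, the kinase Pelle (adjusted p = 7.98e-09), and -2.92 ± 0.15 for sphinx2, a serine protease homologue (adjusted p = 1.57e-08). Maternally supplied dorsoventral patterning of the embryo uses Tl and pll too, and ovary markers moved with this comparison as given above; their part was not tested. In adults against pupae, spirit, a serine protease of the Toll cascade, fell by 3.78 ± 0.13 on the log2 scale in females (adjusted p = 1.71e-09) and by 2.67 ± 0.13 in males (adjusted p = 2.84e-08). At that step 6 of the 17 were called higher and 9 lower in females, where 27.2% and 27.2% of all probe sets were. In males 6 were called higher and 8 lower, where 18.8% and 32.2% were.

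Of 20 Imd pathway genes 18 were measured. In pupae against larvae, 2 were called higher and 9 lower in females, where 25.7% and 19.6% of all probe sets were. In males 2 were called higher and 11 lower, where 27.2% and 21.2% were. The median log2 differences of the 18 were -0.40 in females and -0.48 in males, beside 0.033 and 0.0049 over all probe sets. The largest change was that of pirk, an inhibitor of Imd signalling, which fell by 3.84 ± 0.12 in females (adjusted p = 1.47e-09) and by 3.97 ± 0.12 in males (adjusted p = 1.18e-09) on the log2 scale. In adults against pupae it was higher by 2.47 ± 0.12 in females (adjusted p = 2.7e-08) and 2.52 ± 0.12 in males (adjusted p = 2.68e-08). Its group means thus dipped in pupae as those of PGRP-LB and PGRP-SC2 did, and its male pupal mean, 5.60, was below the dim limit. In adults 12 of the 18 were called higher and 3 lower in females, where 39.0% and 26.6% of all probe sets were. The counts were 9 and 4 after recentring and 14 and 1 after array-median centring. POSH, a scaffold and ubiquitin ligase, had the largest log2 difference of females minus males, 2.67 ± 0.11 (adjusted p = 4.21e-09). Rel, the NF-kappaB factor Relish, fell by 1.65 ± 0.11 in male pupae against male larvae (adjusted p = 3.21e-07).

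Of 8 JAK-STAT genes 5 were measured, and of 28 further immune effectors and regulators 14 were. Listericin, an antibacterial peptide, fell in pupae against larvae by 5.12 ± 0.16 in females (adjusted p = 1.38e-09) and by 5.28 ± 0.16 in males (adjusted p = 1.13e-09) on the log2 scale, and in adults was higher than in pupae by 4.44 ± 0.16 in females (adjusted p = 2.53e-09) and by 5.02 ± 0.16 in males (adjusted p = 1.1e-09). The pupal means of Listericin, 4.90 in females and 4.46 in males, were below the dim limit, where differences are compressed. The lysozymes LysS and LysP fell in female pupae by 6.91 ± 0.24 and 5.67 ± 0.30 against female larvae (adjusted p = 2.37e-09 and 7.63e-08), beside the midgut markers given above. The female pupal mean of LysP, 3.56, was below the dim limit too. In female adults against female pupae LysP was higher by 5.45 on the log2 scale. The same difference of LysS was 0.23 and did not pass the test, so LysS stayed low in female adults. Of the 14 effectors 2 were called higher and 10 lower in pupae against larvae in each sex. Over all probe sets 25.7% were called higher and 19.6% lower there in females, and 27.2% and 21.2% in males. The JAK-STAT receptor dome had a log2 difference of females minus males of 1.71 ± 0.10 in adults (adjusted p = 6.01e-08), and 3 of the 5 JAK-STAT genes were called higher and none lower there, where 39.0% and 26.6% of all probe sets were. After array-median centring all 5 were called higher. Of these, upd1 and upd2 had adult means below the dim limit, 4.88 and 4.77 in females and 3.75 and 4.58 in males.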

How the data were processed

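Total RNA of 12 whole-animal samples was labelled with biotin and hybridised to Affymetrix Drosophila Genome 2.0 arrays, per the labels' protocols. The deposited table holds log2 values, 1 for each probe set on each array. RMA is named in the submitters' processing notes, without a version or options. RMA usually brings arrays to a common distribution, but the array medians here differed between the sexes, and a true shift of all genes cannot be told apart from scaling. Per-array depth does not apply, and the number of arrays limits the precision.

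Of the 18952 probe sets, 183 controls were left out of all tests. Genes were named from the platform annotation, and chromosome arms and neighbours were taken from RefSeq (Release 6 names), whose table held all 29 members. A further 2 probe sets list a member symbol together with another gene and were not used. The samples were grouped by the sex and stage of their labels, and all 12 columns were mapped. One limma fit (version 3.58.1, R version 4.3.3) of 6 group means, with 6 residual and 4.10 prior degrees of freedom, gave 11 comparisons: the sex difference at each of the 3 stages, the 6 stage differences within a sex, and 2 interactions (how the sex difference changed over each step). It was tested on simulated data. Replicate numbers did not pair the samples: over 15 pairs of groups, the correlation of same-numbered deviations lay between -0.08 and 0.08, with 0 over 0.1. The labels call the replicates biological.

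Members are named with their levels. Statistics are given for up to 5 members called in each direction per comparison with the largest differences, and for up to 3 pathway genes per list and comparison. Statistics of other members were added after their values were seen. The members and lists were chosen with earlier results of these data known. Alternatives were quantile normalization, array-median centring, recentring, a filter on low values, eBayes with trend and robust settings, a replicate block, a fit restricted to the groups compared, and leaving out each array. Gene sequences were not used here.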

Additional observations from a re-analysis of the deposited data

Results flagged for a closer look

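These results were picked out because the sex difference, females minus males, changed between stages by limma's own test of that change (an interaction of sex and stage, adjusted p under 0.05). From larvae to pupae the log2 change was 1.67 for Drs, 0.77 for PGRP-LA, 0.76 for BomS6, -1.12 for Def and -1.004 for AttD. Each of these calls was lost in some setting. Under quantile normalization BomS6 was 0.36 (adjusted p = 0.217) and AttD -0.63 (adjusted p = 0.169). For Drs the call was lost without male pupae replicate 1 (1.52, adjusted p = 0.0513). For Def it was lost without any 1 of 5 arrays (adjusted p between 0.0536 and 0.101), and for PGRP-LA without any 1 of 6 (adjusted p between 0.0623 and 0.11). From pupae to adults it was -2.35 for BomBc3, -2.25 for BomBc2, -1.77 for BomT3, -1.74 for BomS6, -1.61 for BomT2, -1.54 for BomS2, -1.25 for BomS4 and -0.76 for BomS5 among the Bomanins. Among the other members it was -2.16 for Drsl4, -1.79 for GNBP2, -1.63 for PGRP-LA, -1.43 for PGRP-LF, -0.99 for PGRP-LB and -0.89 for GNBP3, and it was positive for Def, at 2.12, and PGRP-LE, at 0.63, which was 0.31 (adjusted p = 0.0993) under quantile normalization. With 2 arrays a group, no group was large enough to test a single array as an outlier.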

How the results depend on the processing

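Sex comparisons depended most on the scaling. The number of members called in larvae was 11 as deposited, 21 after array-median centring and 7 after recentring. In pupae it was 12, and 22 after array-median centring. For the change of the sex difference from larvae to pupae it was 5, and 3 under quantile normalization and in a fit of only the groups compared. When each array was left out in turn, with a group's lone array assumed to vary like the other groups, the counts were 6 to 13 in larvae (6 without male larvae replicate 2), 6 to 15 in pupae (6 without female pupae replicate 2), 12 to 20 in adults (12 without female adults replicate 1) and 2 to 8 for the change from larvae to pupae (2 without male pupae replicate 1, 8 without female larvae replicate 2). The 6 stage comparisons and the change from pupae to adults stayed within 1.5 times their counts under every setting. Of 92 differences given for members by the naming rule, none changed sign under any setting, and between 84 and 91 stayed called. Outside these, PGRP-LB in adults was -0.30 as deposited and 0.17 after array-median centring. With the replicate block, 11, 11 and 17 members were called between the sexes in larvae, pupae and adults, and 1 of the 92 calls was lost, that of Drsl2 in pupae (adjusted p = 0.0522); same-numbered samples share only a number. Signal near background limits what can be said of Drsl3, Drsl6 and the juvenile levels of most Bomanins.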
